A study of Caenorhabditis elegans with 3 samples.

Results

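The nuclear genes for the respiratory chain and its assembly were examined for binding of the tagged product of R02D3.7, a gene now named rcat-1, in Caenorhabditis elegans larvae. Members were the nuclear protein-coding genes whose symbols name a subunit of respiratory complexes I to V, cytochrome c or an assembly factor of complex IV. They were taken by symbol prefix (nuo-, nduf-, ndua-, ndub-, nduc-, ndus-, nduv-, sdha- to sdhd-, ucr-, cox-, cyc-, atp- and sco-), together with gas-1, lpd-5, mev-1 and isp-1. This gave 68 of the 19973 nuclear protein-coding genes: 33 for complex I, 5 for complex II, 7 for complex III, 2 for cytochrome c, 16 for complex IV and 5 for complex V. The 16 genes of complex IV were 7 subunits and 9 assembly factors. The symbols chose the members, and no measured value did. The set itself was chosen with earlier results of these data known. Genes of the chain that carry other names were counted apart.

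Chromatin immunoprecipitation followed by sequencing (ChIP-seq) recovers the DNA that a protein is bound to and maps it to the genome. It was done on 3 biological replicates of 1 group, whole L4 larvae of strain OP218, with the insertion wgIs218 on an unc-119(ed3) III background. All 3 replicates therefore shared the transgene, the mutant background, the stage and the pooling of males with females. A fusion of GFP and FLAG at the carboxyl end of the protein is noted for replicate 3, a fragment size range and the CGC as source for replicates 1 and 2, and sonication and the Michael Snyder laboratory as source for replicate 3. The strain is 1 transgenic line, whole animals give no cell type, and no second condition was available. Differences between the replicates in preparation could therefore not be told apart from other differences between them. The control was not analysed here.

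The respiratory chain passes electrons from NADH (complex I) and succinate (complex II) through complex III and cytochrome c to oxygen (complex IV), and complex V uses the proton gradient so built to make ATP. Most of its proteins are encoded in the nucleus, made in the cytosol and imported, whereas a few core subunits of complexes I, III, IV and V are encoded in the mitochondrial genome. In C. elegans many transcripts are trans-spliced, so an annotated start can lie downstream of the place where transcription begins, and genes close together on 1 strand can be transcribed as an operon from 1 promoter.

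Peaks were taken from 5 lists in the ce11 build: the authors' thresholded list of 390 peaks, their pooled list of 11533 peaks, and a list for each replicate of 27624, 28357 and 30000 peaks. A gene was counted as bound in a list when the summit of a peak, its highest point, lay from 1000 bp upstream to 200 bp downstream of the start of any of its transcripts. Distances are given along the strand of the gene, negative upstream of the start. Signal is the deposited strength of a peak, the authors' own value, and was compared only within a list. In the thresholded list it had a median of 60.9 and a range of 35.6 to 901, and in the pooled list a median of 13.1 and a range of 10.3 to 901. Rank 1 is the strongest peak of a list. Without read counts in the lists, sequencing depth is unknown and no counting error can be put on a signal.

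Sequences under 6 of the members' summits show what the bound promoters looked like. Each is the 201 bases of the ce11 reference centred on the summit of the thresholded peak, written 5′ to 3′ on the strand of the member, with the summit at base 101. They lie at chrIII:2528713-2528913 on the plus strand for ndua-8, chrII:4299352-4299552 on the plus strand for sco-1, chrII:9352784-9352984 on the minus strand for sdhb-1, chrII:12679740-12679940 on the plus strand for cox-10, chrIII:5591863-5592063 on the plus strand for ucr-1 and chrIII:2785979-2786179 on the plus strand for cox-6B. Capitals mark CGTAAATC or its reverse complement GATTTACG, an 8-base motif known from earlier results on these peaks. The first 5 hold it, and cox-6B is shown as a bound promoter that does not.
ndua-8: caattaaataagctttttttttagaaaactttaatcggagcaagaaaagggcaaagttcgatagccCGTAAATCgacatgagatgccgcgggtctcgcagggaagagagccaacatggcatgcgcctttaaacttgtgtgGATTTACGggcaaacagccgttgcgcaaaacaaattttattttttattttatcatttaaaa
sco-1: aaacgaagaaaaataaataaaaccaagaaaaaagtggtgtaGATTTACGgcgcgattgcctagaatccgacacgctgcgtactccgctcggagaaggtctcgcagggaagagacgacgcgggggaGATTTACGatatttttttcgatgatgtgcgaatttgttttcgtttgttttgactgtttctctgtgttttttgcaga
sdhb-1: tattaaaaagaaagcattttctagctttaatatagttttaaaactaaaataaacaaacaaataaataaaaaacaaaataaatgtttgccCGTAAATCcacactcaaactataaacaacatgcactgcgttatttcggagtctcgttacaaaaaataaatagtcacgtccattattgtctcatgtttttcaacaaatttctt
cox-10: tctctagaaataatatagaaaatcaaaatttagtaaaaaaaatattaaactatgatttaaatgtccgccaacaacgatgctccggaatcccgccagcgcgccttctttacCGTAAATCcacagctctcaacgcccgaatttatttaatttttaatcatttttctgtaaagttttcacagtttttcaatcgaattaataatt
ucr-1: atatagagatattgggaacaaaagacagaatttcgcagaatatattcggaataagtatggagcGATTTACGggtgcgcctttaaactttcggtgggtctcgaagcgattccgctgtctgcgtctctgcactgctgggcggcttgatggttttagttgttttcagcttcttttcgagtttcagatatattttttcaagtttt
cox-6B: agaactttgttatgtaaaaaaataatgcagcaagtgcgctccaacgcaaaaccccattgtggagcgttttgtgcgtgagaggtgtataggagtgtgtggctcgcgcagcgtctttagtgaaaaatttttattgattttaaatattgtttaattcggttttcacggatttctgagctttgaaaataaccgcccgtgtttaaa

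Bound promoters made up a larger share of the members than of all genes in each of the 8 lists and list tops that were counted. In the thresholded list 15 of the 68 members had a promoter summit (22.1%, exact 95% interval 12.9% to 33.8%), beside 399 of all 19973 genes (2.00%). In the pooled list 41 members had one (60.3%, interval 47.7% to 72%), beside 21.6% of all genes. The intervals treat genes as independent, which neighbours that share a summit are not, and cover counting error only. No test of the difference was made.

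Each replicate gave a like picture on its own, with replicate 2 the lowest. The strongest peaks of each replicate were taken first, 5 times as many as the thresholded list holds, and are called its top peaks here. Among its top peaks replicate 1 had a promoter summit at 26 members (38.2%, interval 26.7% to 50.8%), beside 6.22% of all genes. Replicate 2 had one at 18 members (26.5%, interval 16.5% to 38.6%), beside 5.26%. Replicate 3 had one at 22 members (32.4%, interval 21.5% to 44.8%), beside 5.49%. In these list tops the share of members was thus 6.15, 5.03 and 5.89 times that of all genes.

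In the full replicate lists, which hold many weak peaks, the shares stood in a smaller ratio. Replicate 1 had a promoter summit at 56 members (82.4%) beside 39.2% of all genes, replicate 2 at 40 members (58.8%) beside 37.3%, and replicate 3 at 48 members (70.6%) beside 40.8%. The ratio of the shares was 2.1, 1.58 and 1.73. In the pooled list it was 2.8 and in the thresholded list 11, so it was lowest in the full replicate lists and highest in the thresholded list. The pooled and thresholded lists were made from the replicates' own reads and add no independent sample.

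**Figure D1:**
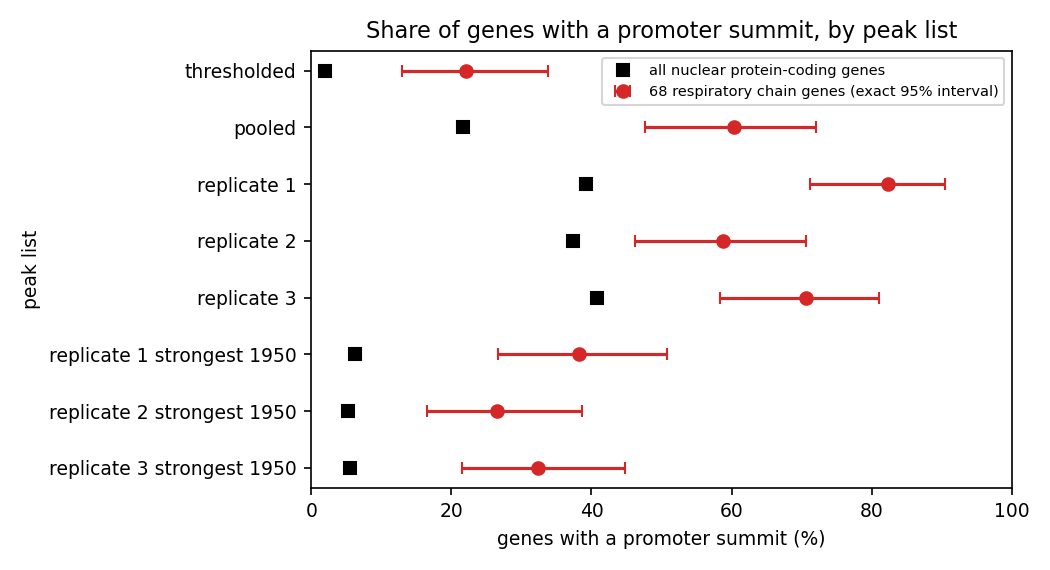
Share of genes with a promoter summit (%, horizontal axis) in each peak list or list top (vertical axis), for the 68 respiratory chain genes (red circles, bars the exact 95% interval) and all 19973 nuclear protein-coding genes (black squares). The red circle lies to the right of the black square in all 8 lists, at 22.1% against 2.00% in the thresholded list and at 60.3% against 21.6% in the pooled list.

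By complex, thresholded peaks were found at members of complexes I to IV and not at those of cytochrome c or complex V. Over all genes the share was 2.00%. Complex I had 6 of 33 (18.2%, interval 6.98% to 35.5%), complex II 1 of 5 (20%, interval 0.505% to 71.6%) and complex III 1 of 7 (14.3%, interval 0.361% to 57.9%). Complex IV had 7 of 16 (43.8%, interval 19.8% to 70.1%). Cytochrome c had 0 of 2, with an upper bound of 84.2%, and complex V 0 of 5, with an upper bound of 52.2%. Groups this small cannot tell a count of 0 from the share of all genes. A gene of complex V outside the symbol rule, asg-2, had a thresholded peak, given below. The intervals of all 6 groups overlapped, and no difference between complexes was tested.

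Within complex IV the subunits and the assembly factors were counted apart. Thresholded peaks stood at 5 of 7 subunits (71.4%, interval 29% to 96.3%) and at 2 of 9 assembly factors (22.2%, interval 2.81% to 60%), and these intervals overlapped too. Beside these counts, 2.00% of all genes had a thresholded promoter peak and 21.6% a pooled one. The pooled list reached 6 of the 7 subunits and 4 of the 9 assembly factors. It also reached 20 of 33 genes of complex I, 2 of 5 of complex II, 4 of 7 of complex III, 1 of 2 for cytochrome c and 4 of 5 of complex V, where atp-5 had none.

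**Figure D2:**
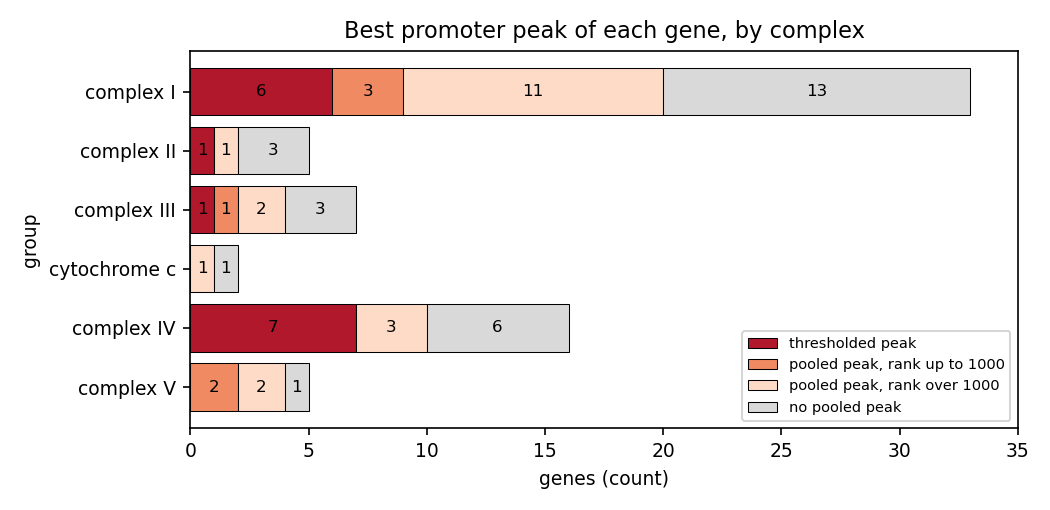
Number of genes (horizontal axis) in each complex (vertical axis) by the strongest peak whose summit lay in a promoter window: a thresholded peak (dark red), a pooled peak of rank up to 1000 (orange), a weaker pooled peak (pale) or none (grey). Complex IV has 7 thresholded genes of 16, complex I has 6 of 33, and complex V has 0 of 5 with 2 genes at pooled peaks of rank up to 1000.

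Complex I takes electrons from NADH, and its best-bound gene was ndua-8, which encodes an accessory subunit. Its peak at chrIII:2528493-2529037 had a signal of 594 and rank 4 in the thresholded list, with the summit at −250 bp. The peak over it ranked 4, 6 and 4 in replicates 1, 2 and 3, with signals of 256, 115 and 218, so all 3 replicates placed it among their strongest. The same summit lay at −124 bp of rbc-2 and at −134 bp of Y54F10AM.15, both on the other strand, and these starts were nearer to it than that of ndua-8.

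Another accessory subunit gene, ndub-3, had a peak at chrII:8964919-8965116 with a signal of 127 and rank 87, and its summit lay at −133 bp. Replicates 1, 2 and 3 ranked it 100, 100 and 83, with signals of 53.5, 31.3 and 44.4. The summit was 17 bp inside C18E9.2 on the other strand, the nearest coding start, and at −874 bp of sftd-3. For nuo-6, also an accessory subunit, the peak at chrI:7069185-7069383 had a signal of 109 and rank 113, with the summit at −105 bp. Its ranks were 104, 99 and 145, with signals of 51.6, 31.4 and 28. The divergent gene tofu-5 had the same summit at −149 bp, so here the member was the nearer of the pair.

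The remaining 3 bound genes of complex I had weaker peaks, and replicate 2 gave each of them its lowest rank. At nuo-3, an accessory subunit, the peak at chrIV:14797284-14797713 had a signal of 60.2, rank 198 and a summit at −29 bp, with ranks of 221, 468 and 163 and signals of 25.6, 12.5 and 24.6. The window of nuo-3 shared it with a coding gene known only by its sequence name, on the same strand, whose start was nearer at −9 bp, and with arl-8 at −650 bp. At nduv-2, an iron-sulfur subunit of the arm that takes up NADH, the peak at chrV:13625587-13626016 had a signal of 54.8, rank 229 and a summit at −235 bp. It ranked 234 and 156 in replicates 1 and 3, with signals of 24.4 and 25.5, but 8374 in replicate 2, with a signal of 5.03. The summit was shared with the divergent F53F4.12 at −245 bp.

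The sixth, nduc-2, an accessory subunit, had no thresholded peak apart from one it shared, and lay downstream of the complex IV gene cox-6B on the same strand, with no gap between the annotated genes. Both genes' windows held the peak at chrIII:2785864-2786293, which had a signal of 55.5 and rank 226 and ranked 296, 893 and 186 in the replicates. Its summit was at −773 bp of nduc-2 and −123 bp of cox-6B, so the peak lay next to cox-6B. When a peak was given to the nearest coding start alone, 2 of the 6 genes of complex I were left, nuo-6 and nduv-2.

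Complex II, succinate dehydrogenase, had 1 bound gene, sdhb-1, for the iron-sulfur subunit. The peak at chrII:9352768-9352961 had a signal of 121 and rank 92, with the summit at −153 bp. Replicates 1, 2 and 3 ranked it 125, 111 and 87, with signals of 44.1, 28.1 and 43.5, so the 3 replicates were close. The divergent cup-15 had the same summit at −116 bp and was the nearer gene. Of the other members of this complex, mev-1, for the large cytochrome b subunit, had a pooled peak of signal 10.6 and rank 10598, and sdha-1, sdha-2 and sdhd-1 had no pooled peak. The flavoprotein copies sdha-1 and sdha-2 were thus alike in having none.

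Complex III had 1 bound gene, ucr-1, for a core protein. Its peak at chrIII:5591748-5592177 had a signal of 74.9 and rank 168, with the summit at −172 bp, shared with the divergent ddx-15 at −245 bp. Replicates 1 and 3 ranked it 139 and 113, with signals of 40.3 and 35.4, whereas replicate 2 ranked it 5746 with a signal of 5.74. The peak therefore rested mainly on replicates 1 and 3. Next in the complex was cyc-1, for cytochrome c1, with a pooled peak of signal 33.1 and rank 443 and a summit at −270 bp, followed by isp-1, for the Rieske iron-sulfur protein, with a signal of 14.2 and rank 4371. Among the copies named ucr-2, ucr-2.2 had a pooled peak of signal 13.6 and rank 5099, and ucr-2.1 and ucr-2.3 had none.

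Cytochrome c, the carrier between complexes III and IV, has a pair of member genes, and they differed. For cyc-2.1 the best pooled peak had a signal of 23.2 and rank 1004, with a summit at 167 bp, and its best promoter peaks ranked 765, 197 and 527 in replicates 1, 2 and 3. That put cyc-2.1 among the top peaks of all 3 replicates without a thresholded peak. The replicate summits lay at −316, 128 and −68 bp, each from its nearest annotated start, so the ranks need not belong to 1 site. The other gene, cyc-2.2, had no pooled peak, and a peak of signal 3.31 and rank 22519 in replicate 1 alone.

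Complex IV, cytochrome c oxidase, was led by its assembly factor sco-1, which in yeast and mammals delivers copper to the enzyme. The peak at chrII:4299162-4299770 had a signal of 515 and rank 6, with the summit at −201 bp. Replicates 1, 2 and 3 ranked it 6, 5 and 7, with signals of 199, 117 and 194, so it was as high in replicate 2 as in the others. No other coding gene's window held the summit. The second bound assembly factor, cox-10, makes the haem O precursor of the enzyme's haem. Its peak at chrII:12679745-12679939 had a signal of 112 and rank 107, with the summit at −114 bp and ranks of 126, 127 and 76. It was shared with the divergent Y38E10A.33 at −194 bp and a ncRNA gene, Y38E10A.30.

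Of the other assembly factors, cox-15, for a step in making haem A, had a pooled peak of signal 18 and rank 2062 at −126 bp. A pooled peak of signal 14.9 and rank 3702 stood at cox-14. The pooled list held no promoter peak for cox-11 and cox-17, which act on copper, nor for cox-16, cox-18 and cox-19.

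Among the structural subunits, cox-5B had the strongest peak. It lay at chrI:9788590-9788880 with a signal of 222 and rank 35, and its summit was 28 bp downstream of the start, the only summit of the 15 that was not upstream. Ranks of 45, 40 and 37 and signals of 88.7, 54.1 and 76.7 placed it alike in the 3 replicates. Besides cox-5B the windows of the ncRNA genes F26E4.14 and F26E4.16 held it. The peak of cox-5A at chrIII:12904964-12905393 had a signal of 57.8, rank 213 and a summit at −312 bp, with ranks of 266, 192 and 228. At cox-4 the peak at chrI:13659314-13659743 had a signal of 49.4, rank 252 and a summit at −401 bp, with ranks of 317, 274 and 251. Neither was shared with another coding gene, and a pseudogene lay beside that of cox-4.

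The cox-6B peak, described with nduc-2, had signals of 20.3, 10 and 21.9 in replicates 1, 2 and 3, and was shared with the divergent Y71H2AM.20 at −131 bp. The annotation also gives cox-6B a start far upstream, and the peak lay at the other one. The seventh, cox-6A, had the weakest peak of the 15, at chrIII:5080663-5081092 with a signal of 41.3 and rank 318, and the farthest summit at −846 bp. Ranks of 761, 261 and 591 and signals of 12.3, 16.8 and 10.9 made replicate 2 the highest here. In replicate 3 the summit of that peak lay 167 bp to 1 side of the thresholded summit and outside the window of cox-6A, and the best summit inside it ranked 2107.

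That cox-6A peak overlapped a snRNA gene, F54D8.7, a name the annotation gives to 3 genes on chromosomes III and IV. Of the 166 stretches of 36 bases in the 201 bp round the summit, 76 (45.8%) occurred elsewhere in the genome, against 0 at each of the other 13 peaks. How the authors placed reads with several matches is not given in the sources used here, so the reads under this peak could belong to another copy. Without cox-6A, 14 members and 6 genes of complex IV had a thresholded peak. The 2 subunits without one were cox-6C, with a pooled peak of signal 11.6 and rank 8222, and cox-7C, with none.

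Complex V, the ATP synthase, had no thresholded peak at its 5 members. The genes for the alpha and beta subunits of its catalytic head, atp-1 and atp-2, had pooled peaks of signal 26.9 and 28.2, of rank 684 and 610. For atp-2 the summit lay at −276 bp, and its best promoter peaks ranked 440, 3572 and 1603 in replicates 1, 2 and 3. For atp-1 it lay at 40 bp, and the ranks were 25837, 314 and 870. The low replicate was thus replicate 2 at atp-2 and replicate 1 at atp-1. The gene atp-3 followed closely at signal 23.1 and rank 1022, atp-4 had signal 13.1 and rank 5687, and atp-5 had no pooled peak.

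The members just outside the thresholded list were those with a pooled peak of rank up to 1000, and there were 6 of them. Besides cyc-1, atp-1 and atp-2 they were 3 genes of complex I, nduf-9 with a signal of 27.4 and rank 653, nduf-2.2 with 24.9 and rank 831, and nduf-6 with 23.5 and rank 964. Their summits lay at −645, −768 and −333 bp. At nduf-9 the best promoter peaks ranked 441, 11432 and 1719 in replicates 1, 2 and 3, at nduf-2.2 they ranked 1715, 1142 and 3129, at nduf-6 435, 10179 and 11223, and at cyc-1 430, 3720 and 853. None of the 6 was among the top peaks of all 3 replicates. Both nduf-2.2 and gas-1 encode the same core subunit of complex I, a pair singled out after their values were seen, and gas-1 had no promoter peak in any of the 5 lists. The same held for ndub-6.

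Replicate support at the bound members was near that at all genes with a thresholded peak. The authors drew the thresholded list from the replicate and pooled lists by their agreement, so support within it was largely built in. At 13 of the 15 a top peak of each replicate had its summit inside the thresholded peak (86.7%), beside 326 of 399 for all genes with a thresholded peak (81.7%). Both exceptions, ucr-1 and nduv-2, lacked it in replicate 2. A promoter summit among the top peaks of all 3 replicates was found at 13 members (19.1%), beside 410 of all genes (2.05%). These 13 were the bound members other than ucr-1, nduv-2 and cox-6A, plus cyc-2.1. The count took a summit anywhere in a member's promoter windows and did not ask for 1 site. A further 10 members had such a summit in 2 replicates (14.7%), beside 2.13% of all genes. It was found in 1 replicate at 7 members (10.3%), beside 6.55%, and in none at 38 (55.9%), beside 89.3%. With replicate 2 set aside, the other replicates supported all 15 peaks, and the same count was not made over all genes.

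**Figure D3:**
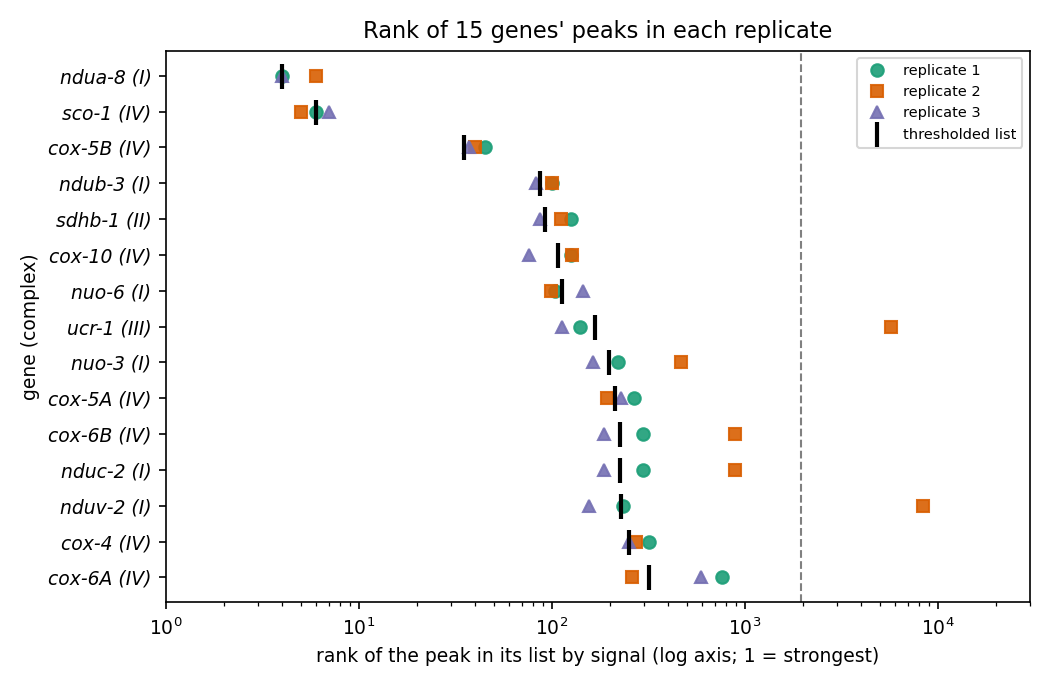
Rank by signal (horizontal log axis, 1 the strongest) of the peak over each of 15 genes (vertical axis, complex in brackets) in replicate 1 (green circles), replicate 2 (orange squares), replicate 3 (purple triangles) and the thresholded list (black bars), with a dashed line at the end of the top peaks. The points of ndua-8 and sco-1 lie between 4 and 7, and only the replicate 2 points of ucr-1 (5746) and nduv-2 (8374) lie right of the line.

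The members' thresholded peaks were of middling strength within the list. Their median signal was 74.9 and their median rank 168, beside 86.2 and 149 over all 399 genes with a thresholded peak. In the pooled list the order was the other way, with a median signal of 23.5 and rank of 964 over 41 members and 14.4 and 4137.5 over 4306 genes. These medians are over genes that have a peak, so they say nothing of the genes without one.

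The summits lay close upstream of the starts. Over the 15 members the median distance was −172 bp (quartiles −281 and −118.5 bp), with 14 summits upstream. Over all 399 genes it was −229 bp (quartiles −381.5 and −123 bp). The members' distances ran from −846 to 28 bp, and the difference of the medians was not tested.

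**Figure D4:**
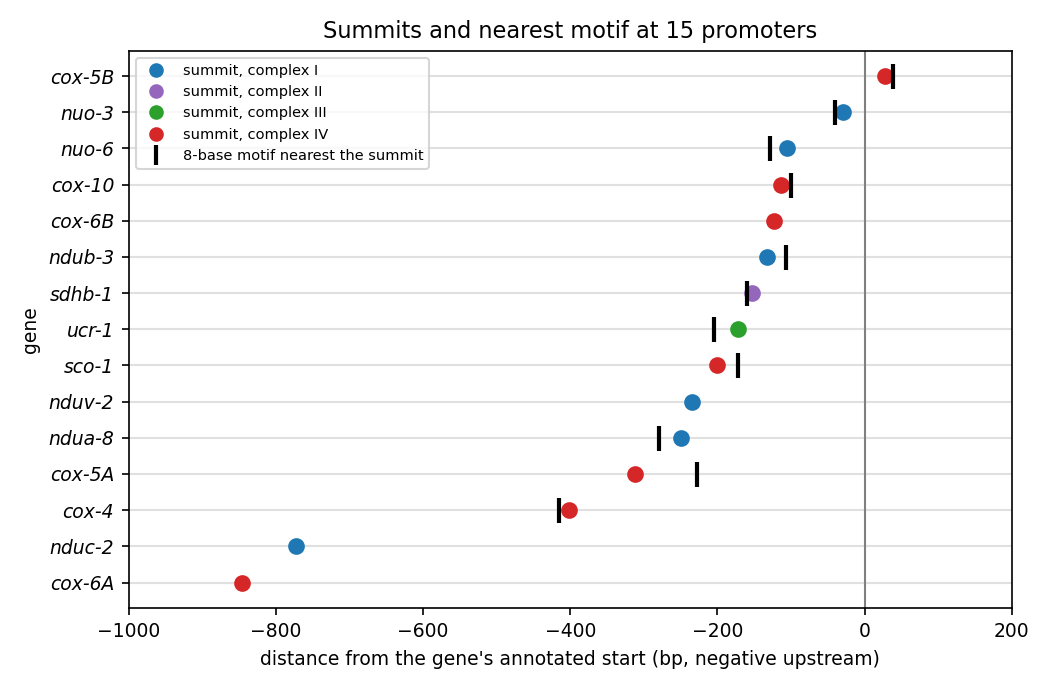
Distance of the thresholded summit from the annotated start (horizontal axis, bp, negative upstream) at 15 genes (vertical axis), coloured by complex, with a black bar at the nearest 8-base motif CGTAAATC within 100 bp of the summit. Summits run from −846 bp at cox-6A to 28 bp at cox-5B, and 11 of the 15 genes have a bar.

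A peak between genes on opposite strands cannot be assigned to either from its position alone, so the neighbours were counted. At 10 of the 15 members the summit also lay in the promoter window of another coding gene (66.7%), beside 260 of 399 for all bound genes (65.2%). The member had the nearest coding start at 10 of the 15 (66.7%), beside 268 of 399 (67.2%). All 5 members that shared their summit with no other coding gene belonged to complex IV: sco-1, cox-5B, cox-5A, cox-4 and cox-6A. Each of the 7 bound genes of complex IV had the nearest start, as did 2 of the 6 of complex I, the 1 of complex III and not the 1 of complex II.

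The gene arrangement itself differed between the members and the genome. A gene on the opposite strand started within 1000 bp upstream of the most upstream start of 35 of the 68 members (51.5%), beside 3658 of all genes (18.3%). Among members with a thresholded peak it was 10 of 15 (66.7%), and among members without 25 of 53 (47.2%). For all genes with a thresholded peak it was 220 of 399 (55.1%), and for those without 3438 of 19574 (17.6%). The difference between bound and unbound members rests on 15 and 53 genes and was not tested. What part this arrangement has in the share of bound members was not tested.

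Position within runs of genes on 1 strand also varied. A member was placed in a run when another coding gene ended less than 500 bp upstream on the same strand, the layout of many operons. By this measure 21 members stood downstream. The other 47 were counted as first, and these include genes that stand in no run. A thresholded peak was found at 14 of the 47 (29.8%), beside 330 of 15951 genes so counted in the genome (2.07%). Of the 21 downstream members 1, nduc-2, had one (4.76%), beside 69 of 4022 (1.72%).

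Another 2 downstream members lay behind a run's first gene that was bound. The first was cyc-1, in a run headed by eif-2beta, whose peak had a signal of 77.4 and rank 163. The other was cyc-2.1, behind rpl-20, a ribosomal protein gene, whose peak had a signal of 808 and rank 2. With these, 17 members (25%) had a peak at their own promoter or at that of the first gene of their run, beside 530 of all genes (2.65%). Whether either pair is made from 1 transcript was not measured.

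By chromosome the bound members were 3 of 19 on I, 4 of 12 on II, 6 of 15 on III, 1 of 11 on IV, 1 of 7 on V and 0 of 4 on X. Over all genes the shares on these chromosomes were 2.85%, 2.2%, 3.22%, 2.19%, 1.32% and 0.659%. Chromosome III had the highest share and X the lowest in both. The 4 members on X, gas-1, sdha-1, ucr-2.1 and ucr-2.2, include 3 without a pooled peak.

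The 8-base motif CGTAAATC and the 6-base CGTAAA it contains were searched on both strands. Within 50 bp of the summit the longer motif stood at 10 of the 14 distinct peaks of the members (71.4%, interval 41.9% to 91.6%). It stood at 127 of 277 thresholded peaks at any coding promoter (45.8%, interval 39.9% to 51.9%) and at 149 of all 364 nuclear ones (40.9%). For CGTAAA the counts were 11 of 14 (78.6%), 152 of 277 (54.9%) and 175 of 364 (48.1%). The members' interval overlapped that of all coding promoters, whose 277 peaks include the members' 14, and the difference was not tested.

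In the sequences printed above, ndua-8 and sco-1 each carried 2 copies of the motif, 1 on either side of the summit, and sdhb-1, cox-10 and ucr-1 carried 1. Measured along the strand of the member, the copy nearest the summit was centred at −30 bp at ndua-8, 29 bp at sco-1, −7 bp at sdhb-1, 14 bp at cox-10 and −33 bp at ucr-1. It was centred at 26 bp at ndub-3, −23 bp at nuo-6, −11 bp at nuo-3, 10 bp at cox-5B, −14 bp at cox-4 and 84 bp at cox-5A. The motif thus lay near the highest point of the peak at 10 genes and farther off at cox-5A. No copy was found within 100 bp at cox-6A, at nduv-2, which had a CGTAAA at −11 bp, or at the peak of cox-6B and nduc-2.

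Over whole promoter windows of 1201 bp, taken at the most upstream start, the motif was found mostly at bound members. The motif was known from earlier results on these peaks, so a higher share at bound genes was built into its choice. It was present at 12 of the 15 bound members (80%) and at 2 of the 53 others (3.77%). At cox-6A, 1 of the 12, the copy lay at −340 bp, away from the summit at −846 bp. Over all genes 1117 of 19973 windows held it (5.59%), and of the 399 bound genes 234 did (58.6%). Read the other way, 12 of the 14 members with the motif had a thresholded peak (85.7%), beside 234 of 1117 genes (20.9%). The 2 members with the motif and no thresholded peak were lpd-5, with a pooled peak of signal 17.7 and rank 2207, and nduf-5, with none.

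The shorter motif was less sharply divided. A CGTAAA stood in the window of 14 of the 15 bound members (93.3%), 16 of the 53 others (30.2%) and 7899 of all genes (39.5%). For cox-6B, 1 of the 14, that window lay at its far upstream start and not at its peak. No CGTAAA stood within 100 bp of the cox-6B summit. None of the 6 members at pooled peaks of rank up to 1000 held the 8-base motif, beside 46 of 372 genes of that class (12.4%). Of the 20 members at weaker pooled peaks 1 held it (5%), beside 204 of 3535 genes (5.77%), and of the 27 members with no pooled peak 1 did (3.7%), beside 633 of 15667 (4.04%). Outside the thresholded class the members' shares were near those of all genes or at 0. A match is a description of the letters and not evidence of a bound site.

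**Figure D5:**
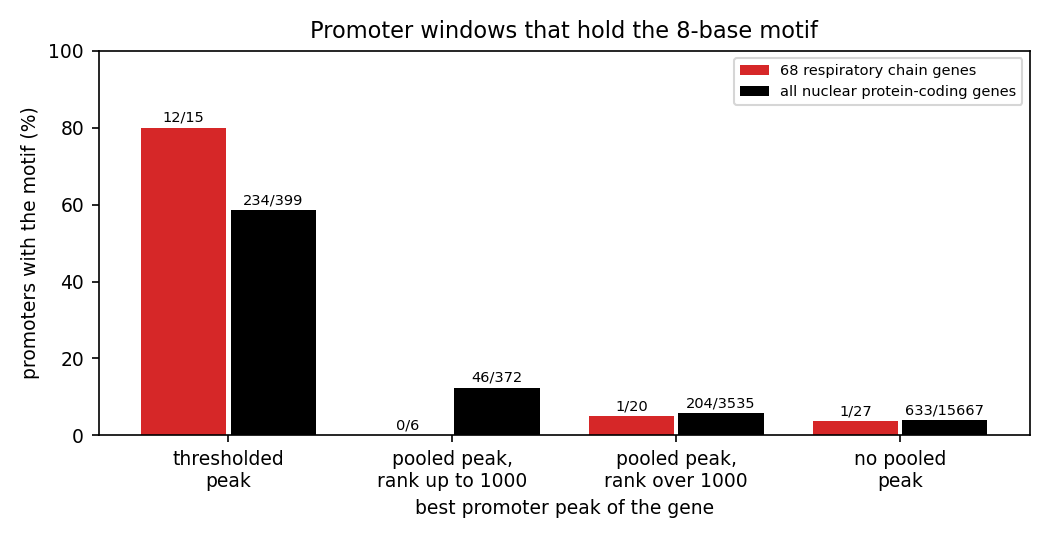
Share of promoter windows of 1201 bp that hold CGTAAATC on either strand (%, vertical axis) by the best promoter peak of the gene (horizontal axis), for the 68 respiratory chain genes (red) and all nuclear protein-coding genes (black), with the counts above the bars. The share is 80% and 58.6% at thresholded peaks, and 12.4% or less in the other classes.

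The bases next to the motif were compared as well. Reading the motif as CGTAAATC, any base followed by ACA came next at 8 of the 13 copies within 100 bp of the members' summits (61.5%). That was so at 164 of 206 copies within 100 bp of all nuclear thresholded summits (79.6%) and at 3070 of 6063 copies in the nuclear genome outside thresholded peaks (50.6%). Copies with other bases were those at cox-5B, ucr-1, cox-5A and cox-4 and the second copy at sco-1.

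Longer runs of shared letters were looked for between the 201-base windows of the 14 peaks, a search chosen after the values were seen. Of 91 pairs, 4 shared a run of 15 bases or more. The windows of ndua-8 and sco-1 shared 18 bases, ggtctcgcagggaagaga, which span the summit or lie next to it and occur 2 times in the genome, only at these peaks. The windows of ndua-8 and sdhb-1 shared 21 bases, gtgtggatttacgggcaaaca, which include the motif on its other strand, also with 2 occurrences in the genome. The run of 15 bases shared by ndua-8 and ucr-1, tgcgcctttaaactt, occurs 26 times in the genome and at 2 nuclear thresholded summits. The fourth pair, nuo-6 and nduv-2, shared 17 bases that occur 9 times.

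Genes of the same pathway under other names were counted by lists of symbols. Over all genes 2.00% had a thresholded promoter peak and 21.6% a pooled one. Of 23 further respiratory chain genes, among them other subunits of complex V, the ADP/ATP carriers and more assembly factors, 2 had a thresholded peak (8.7%) and 15 a pooled one (65.2%). These were asg-2, for subunit g of the ATP synthase, with a signal of 58, rank 212 and a summit at −206 bp, and coa-5, for an assembly factor of complex IV, with 60.7, rank 196 and −198 bp. All 3 replicates supported both, and each shared its summit, asg-2 with glr-6 and coa-5 with car-1. So 1 gene of the ATP synthase outside the symbol rule had a peak of the thresholded list.

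Of 14 genes for protein import into mitochondria, 7 had a pooled peak (50%), beside 21.6% of all genes. A thresholded peak stood at 2 of them (14.3%), beside 2.00% of all genes. One was tomm-70, for a receptor of the outer membrane, with a signal of 89.9, rank 141 and a summit at −146 bp, supported by 3 replicates and shared with sma-2. The other was tin-13, for a carrier protein of the space between the membranes, with 53.9, rank 231 and −491 bp, supported by 2 replicates. Of 5 genes for the upkeep and transcription of the mitochondrial genome, 0 had a thresholded peak and 2 a pooled one (40%). These lists are small, and their shares were not tested against that of the members.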

How the data were processed

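ChIP-seq was analysed in 3 biological replicates of 1 group, so no comparison between groups and no paired analysis was made. Per the deposited description files, the authors called peaks per replicate with 1 control in common, and on all 3 alignments at once for the pooled list. The irreproducible discovery rate then gave the thresholded list from the other 4. Not given in the sources used here are the aligner, the caller, its settings and the cutoff of that rate. The deposited signal value of each peak is the authors' own and served for ranks within a list. The ce10 lists were not used. No read counts were used, so depth is unknown, and 0 columns of other samples were found.

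Gene models were those of Ensembl release 115, and sequence from the RefSeq genome WBcel235, the build of ce11. Coordinates are 1-based. A gene was called bound when a summit lay in the window that runs 1000 bp up and 200 bp down from a transcript start. A replicate supported a peak when a top peak, of the strongest 5 times 390, had its summit inside it. Motifs were sought on both strands within 50 bp of a summit and in windows of 1201 bp. Shares carry exact 95% Clopper-Pearson intervals. No p-value was computed. Python 3.11.15, pandas 2.3.3, numpy 2.4.6 and SciPy 1.17.1 were used. The calling of promoter summits was tested on simulated data with the thresholded list's layout, and 200 of 200 planted genes among 19973 were recovered.

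The members, the lists, the motifs and the comparisons were chosen with earlier results of these data known. Named are every member with a thresholded peak, those with a pooled peak of rank up to 1000, the 2 with the strongest pooled peaks of each complex, copies of each other, genes that share a member's summit, and genes of the other lists with a thresholded peak. Members named without a peak complete a complex and were added after their values were seen. The alternatives were other windows, list lengths, nearest starts only and each replicate left out.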

Additional observations from a re-analysis of the deposited data

How the results depend on the processing

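Of 46 alternative counts or shares, 37 stayed within 1.5 times the reported count or within the interval of the share. Part of these were bound to stay. The counts of 0 at cytochrome c and complex V could not rise under their stricter rules. Counts of supported members could only stay or rise, to 15 at most, with full replicate lists or fewer replicates. The alternatives that moved were counts from shorter lists or stricter rules. The 195 strongest thresholded peaks left 8 of the 68 members, beside 1.26% of all genes, with 3 in complex I and 3 in complex IV. The 1000 strongest pooled peaks left 21 members, beside 3.86% of all genes. The 390 strongest peaks left 14 members in replicate 1 and 14 in replicate 3, beside 1.97% and 1.90% of all genes. With the nearest coding start only, a rule added for the complexes after the values were seen, complex I had 2 members and complex II 0. All bound members then came to 10, beside 1.34% of all genes. A divergent neighbour within 500 bp was found at 16 members without a thresholded peak. Leaving out 1 replicate at a time could not lower the count of supported members from 13, and gave 13 to 15. With the 390 strongest peaks of each replicate in place of its top peaks, all 3 replicates supported 9 members. Windows of 500 and 2000 bp gave 13 and 16 bound members, beside 1.65% and 2.53% of all genes. The median distance, −172 bp as reported, was −153 bp with the narrow window and −245 bp in the pooled list.

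Limits are the 3 replicates of 1 line, whole animals, 1 control shared by the replicates, unknown depth, annotated starts in place of mapped ones, and summits that several genes share. The counts for complexes II, III and V and for cytochrome c rest on 2 to 7 genes.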

Other observations

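The part of the respiratory chain that is encoded in the mitochondrial genome was left out of the members, and its values are given here. Thresholded peaks on that genome numbered 26, and 10 of its 12 coding genes had a thresholded summit in the promoter window. These genes lie close together on a short circular genome, so 1 peak can fall in the windows of several of them. With 26 peaks on it, a window of 1201 bp could hold a summit at most places, so the count says little of these genes. Whether the tagged protein enters mitochondria was not measured.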
